A study of Mus musculus with 11 samples.

Results

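Hspa1a and Hspa1b encode the stress-inducible members of the HSP70 family of chaperones. They were taken as the 2 members here from 4338 genes with ribosome footprint counts, each as the transcript with the highest summed count, and each has a single annotated transcript. HSP70 proteins bind exposed stretches of unfolded proteins and release them in cycles of ATP binding and hydrolysis. J-domain proteins deliver clients and trigger hydrolysis, and nucleotide exchange factors reset the cycle. In unstressed cells the constitutive member, Hspa8, does this work, while Hspa1a and Hspa1b are transcribed strongly after heat shock factor 1 binds the heat shock elements of their promoters. Both genes lack introns, so their transcripts need no splicing, and HSP70 induction is a long-known response of brain tissue to ischaemia.

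The study asked which messenger RNAs ribosomes occupy early after a stroke. All animals were wild-type C57BL6 mice of 7 to 8 weeks. The 4 ipsilateral libraries (replicates 2, 4, 5 and 6) came from cortex of the hemisphere whose middle cerebral artery was blocked by a filament for 35 min, with common carotid ligation, then reperfused for 3 h. The 4 contralateral libraries (1, 4, 5 and 6) came from the opposite cortex of such animals, and the 3 sham libraries (1, 2 and 5) from cortex of animals with anaesthesia and exposed arteries but no filament. Blood flow had to fall below 15% and recover above 80%. The tissue entry of the 4 ipsilateral samples reads contralateral. Their titles and descriptions say ipsilateral and were followed here. The hemisphere sampled in sham animals and whether libraries of both hemispheres came from the same animal are not stated. Each replicate number stands for a separate day of surgery.

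Footprint totals over the transcripts chosen per gene were 35066 to 137339 in ipsilateral, 137372 to 571350 in contralateral and 64461 to 256658 in sham libraries. Every ipsilateral total lay below every contralateral one, and the shallowest libraries were ipsilateral replicate 4 and sham replicate 2. Of the marker lists, all 12 neuronal genes were in the table, at a summed 13969 to 17005 CPM in ipsilateral, 15238.5 to 17392 in contralateral and 15238.5 to 17122 in sham libraries. The 9 of 11 cortical excitatory genes in the table summed to 4846 to 6684 CPM in ipsilateral, 4905 to 7392 in contralateral and 5469 to 7017 in sham libraries. CPM is the usual count per library total on a common scale, with the total adjusted by TMM, a factor that equalises the bulk of genes. With footprints alone, transcript amount and ribosome load cannot be told apart. In these bulk samples, fewer cells of a type and less RNA per cell cannot be told apart either.

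In the mm10 annotation Hspa1a is a single exon of 2967 nt on the minus strand at chr17:34969190-34972156, with a coding sequence of 1923 nt. Hspa1b is a single exon of 2803 nt on the same strand at chr17:34956436-34959238, with a coding sequence of 1926 nt. Their coding sequences differed at 8 bases and 3 gap positions over an alignment of 1926 columns, an identity of 99.4%, with an unbroken identical run of 638 nt. Of all 28-nt words, about the length of a footprint, 89.5% of those in the Hspa1a coding sequence also occurred in Hspa1b. None of the 3′ untranslated words did. No coding word was shared with Hspa8, and 7 words (0.369%) were shared with Hspa2. An exact 28-nt match to the coding sequence of the inducible pair thus does not also fit Hspa8. Shorter footprints and matches with differing bases were not examined. A stretch of coding bases 1357 to 1416 shows how little separates the copies, with the 2 differing bases in capitals.
Hspa1a: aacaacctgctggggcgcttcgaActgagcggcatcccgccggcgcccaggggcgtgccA
Hspa1b: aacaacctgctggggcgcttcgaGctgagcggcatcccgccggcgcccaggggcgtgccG
A footprint between such bases fits both genes. A gene predicted on the other strand, Gm20481, overlaps 564 nt of the Hspa1a exon, and Hspa1l, a testis-type relative that lies head to head with Hspa1a at chr17:34972703-34979285, shared 20.3% of the Hspa1a coding words. Neither was analysed here, and the rule for reads that fit several places, like the use of strand, is not given in the sources used here.

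Upstream of their start the copies are as alike. The 250 bases before each start, from RefSeq on GRCm38.p6, differed at 3 positions, and are shown because heat shock elements and CCAAT boxes are the elements through which these promoters are known to act. They lie on the minus strand at chr17:34972157-34972406 for Hspa1a and chr17:34959239-34959488 for Hspa1b. Capitals mark GAANNTTC, an inverted pair of heat shock half-sites, and CCAAT, here read on the opposite strand as ATTGG.
Hspa1a: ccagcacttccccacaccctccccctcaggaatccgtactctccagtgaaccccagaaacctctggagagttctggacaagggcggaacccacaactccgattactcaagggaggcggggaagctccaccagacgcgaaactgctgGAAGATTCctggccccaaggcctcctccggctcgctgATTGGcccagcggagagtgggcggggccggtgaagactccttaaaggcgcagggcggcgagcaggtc
Hspa1b: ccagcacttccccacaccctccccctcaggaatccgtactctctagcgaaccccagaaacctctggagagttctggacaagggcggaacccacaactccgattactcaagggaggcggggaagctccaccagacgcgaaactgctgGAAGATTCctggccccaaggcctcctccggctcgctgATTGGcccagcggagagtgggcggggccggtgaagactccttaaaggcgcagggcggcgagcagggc
Each window held 1 GAANNTTC, starting 104 bases before the start, and 1 CCAAT. The other inverted pair, TTCNNGAA, and the letters TATAAA were not in either window, on either strand. Among 32851 RefSeq windows of 250 bases, 6.69% held GAANNTTC, 7.17% TTCNNGAA, 33.9% CCAAT and 7.59% TATAAA. A match describes these letters and shows no binding.

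Footprints on the inducible pair stood far higher in ipsilateral cortex than in either other group. Hspa1a had counts of 429, 180, 137 and 476 in ipsilateral replicates 2, 4, 5 and 6, against 9, 21, 39 and 59 in contralateral replicates 1, 4, 5 and 6 and 18, 9 and 17 in sham replicates 1, 2 and 5. Scaled to library size, Hspa1a reached 3121, 5138.5, 1649.9 and 3984 CPM in those ipsilateral libraries. It had 59.0, 156, 128 and 102 CPM in the contralateral libraries and 68.8, 137 and 87.6 CPM in the sham libraries. The lowest ipsilateral library, replicate 5, thus lay far above the highest of the other 7, contralateral replicate 4, and the contralateral and sham ranges overlapped.

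Hspa1b gave nearly the same picture. Its counts were 422, 175, 140 and 483 in ipsilateral replicates 2, 4, 5 and 6, against 8, 19, 41 and 56 in contralateral replicates 1, 4, 5 and 6 and 20, 9 and 17 in sham replicates 1, 2 and 5. In CPM these were 3070.3, 4996, 1686 and 4043 in ipsilateral, 52.5, 142, 135 and 96.8 in contralateral and 76.4, 137 and 87.6 in sham libraries. Again no ipsilateral library overlapped either other group.

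**Figure D1:**
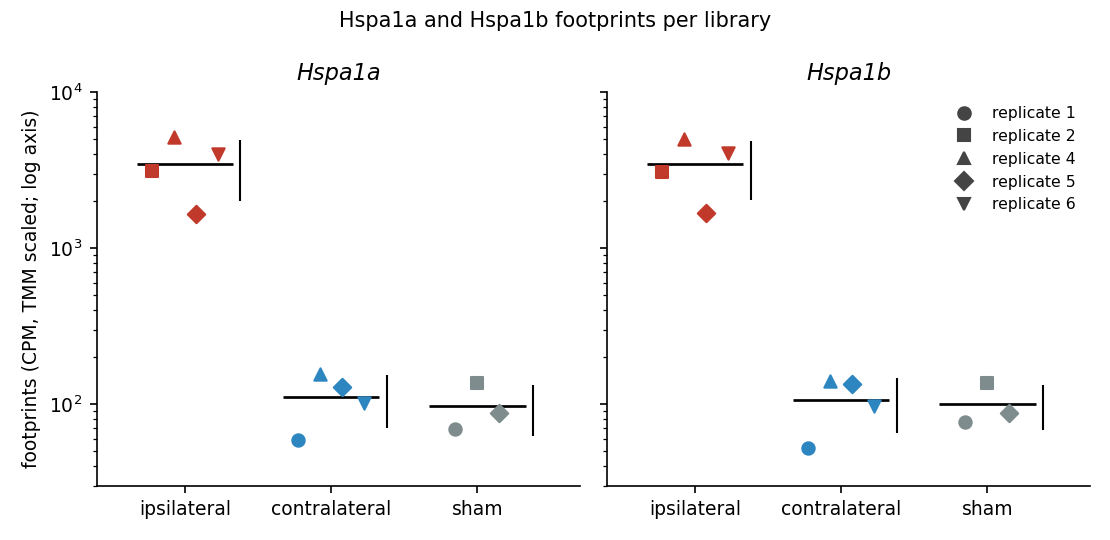
Footprints on Hspa1a (left) and Hspa1b (right) in CPM on a log axis, 1 point per library with its replicate number as the symbol, the group mean as a line and ± 1 SD as a bar. The 4 ipsilateral libraries lie between 1649.9 and 5138.5 CPM, above all 7 contralateral and sham libraries, which mix with each other below 160 CPM.

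Group means were 3473 ± 1470 CPM in ipsilateral, 111 ± 41.4 in contralateral and 97.9 ± 35.4 in sham cortex for Hspa1a (SD, n = 4, 4 and 3). For Hspa1b they were 3449 ± 1414, 106 ± 41.0 and 100.4 ± 32.4 CPM in the same order of groups. By edgeR's quasi-likelihood test, with Benjamini-Hochberg adjustment over 3835 genes, Hspa1a rose by 5.28 ± 0.49 (log2 ± SE) in ipsilateral against sham cortex, 38.9-fold, at adjusted p = 0.0025. Hspa1b rose by 5.22 ± 0.48, 37.2-fold, at adjusted p = 0.0025 in the same test. Against contralateral cortex, which shares the ipsilateral libraries with the first comparison, the log2 changes were 4.94 ± 0.40 for Hspa1a and 4.98 ± 0.39 for Hspa1b, or 30.8-fold and 31.7-fold, with adjusted p = 0.00118 by edgeR for each. These were the highest and second-highest log2 changes among the tested genes in both comparisons. The next gene against sham, Xylb, had a log2 change of 3.85 at adjusted p = 0.739 by edgeR. Against contralateral cortex it was the immediate early gene Fos, at 3.03 and adjusted p = 0.0065 by edgeR.

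Such calls were rare in these shallow libraries. Over all genes 0.104% passed in ipsilateral against sham cortex (4 of 3835, all higher, with 0.0% lower) and 0.365% in ipsilateral against contralateral cortex (14 genes, 13 of them or 0.339% higher and 1 or 0.0261% lower). Genes whose ipsilateral libraries all lay above the other group made up 3.91% against sham and 2.35% against contralateral. Both members met all of these criteria. Without sham replicate 1 the change against sham was 5.04 for Hspa1a and 5.03 for Hspa1b, at adjusted p = 0.0666 by edgeR for each, and no gene passed in that fit.

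Contralateral and sham cortex were not told apart by either gene. The log2 change in contralateral against sham cortex was 0.34 ± 0.54 for Hspa1a (adjusted p = 0.987 by edgeR), and 0.23 ± 0.53 for Hspa1b (adjusted p = 0.9999). No gene passed in this comparison by edgeR (0.0% of 3835), while 221 (5.76%) had an unadjusted p under 0.05. DESeq2 called 2 genes and limma-voom 0. Contralateral counts were 8 to 59 and sham counts 9 to 20 per gene, and the smallest detectable difference was not tested. For the sum of both genes, the ratio of contralateral to sham cortex had a 1 SE interval of 0.840 to 1.70. That interval is from the fit with all groups, where the log2 change had an SE of 0.51. With the contralateral and sham libraries alone, the log2 change of the sum was 0.28 ± 0.26 (adjusted p = 0.925 by edgeR). Hspa1a then had 0.36 ± 0.29 and Hspa1b 0.25 ± 0.29, from the same counts. The width of the interval thus depended on whether the ipsilateral libraries were in the fit.

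The counts of the near copies were almost equal in every library. Hspa1a minus Hspa1b was 7, 5, -3 and -7 reads in ipsilateral replicates 2, 4, 5 and 6, then 1, 2, -2 and 3 in contralateral replicates 1, 4, 5 and 6, and -2, 0 and 0 in sham replicates 1, 2 and 5. Summed over libraries, Hspa1a had 1394 counts and Hspa1b 1390. The share of Hspa1a in the sum was 50.05% ± 0.60 in ipsilateral, 51.4% ± 1.88 in contralateral and 49.1% ± 1.52 in sham libraries (SD, n = 4, 4 and 3). In exact two-sided permutation tests the share gave p = 0.4 for ipsilateral against sham, 0.229 for ipsilateral against contralateral and 0.171 for contralateral against sham, or 0.4, 0.343 and 0.343 adjusted over the 3. The chi-square of an equal split summed to 0.604 over the 11 libraries, below the 11 that independent counting gives on average. The 2 counts are therefore not independent measurements, and their tests are read here as one. If reads that fit both genes were entered under both, the share is held near an even split. Its tests then cannot show how the copies divide the signal. In that case the distinct footprints of the pair lie between the larger count and the sum.

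Read as one signal, the pair took up 0.620%, 1.01%, 0.331% and 0.778% of the footprint totals in ipsilateral replicates 2, 4, 5 and 6. It took 0.0114%, 0.0291%, 0.0262% and 0.0201% in contralateral replicates 1, 4, 5 and 6, and 0.0148%, 0.0279% and 0.0174% in sham replicates 1, 2 and 5. The exact 95% Clopper-Pearson interval, which covers counting error only, was widest relative to its value in contralateral replicate 1, at 0.00666% to 0.0183%. The lower bound of the lowest ipsilateral library was 0.293%, above the upper bound of 0.0441% in sham replicate 2, the highest upper bound outside ipsilateral cortex. These intervals take each count of the sum as a separate read. If reads were entered under both genes, the shares are too high and the intervals too narrow for their values. For Hspa1a alone, the lower bound was 0.137% in ipsilateral replicate 5 and the upper bound 0.0265% in sham replicate 2. Among 4338 genes ranked by count, Hspa1a stood at places 9 to 72 (median 19.5) in ipsilateral libraries, at 1428 to 3416 in contralateral and at 1724 to 3163 in sham libraries.

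The summed signal averaged 6922 ± 2883 CPM in ipsilateral, 218 ± 82.0 in contralateral and 198 ± 67.7 in sham cortex (SD, n = 4, 4 and 3). With the sum in place of both genes in the edgeR fit, the log2 change was 5.23 ± 0.51 in ipsilateral against sham cortex, 37.6-fold (adjusted p = 0.0110). It was 4.98 ± 0.43 in ipsilateral against contralateral cortex, 31.5-fold (adjusted p = 0.00404 by edgeR), and 0.26 ± 0.51 in contralateral against sham cortex, 1.19-fold (adjusted p = 0.9998 by edgeR). Over libraries alone, an exact two-sided permutation test of log2 CPM gave p = 0.0571 for ipsilateral against sham and p = 0.0286 for ipsilateral against contralateral, each the smallest that the group sizes allow, and 0.857 for contralateral against sham. Adjusted over the 3 comparisons these exact p-values were 0.0857, 0.0857 and 0.857. The edgeR call of the sum against sham did not hold without sham replicate 1 (adjusted p = 0.167) or sham replicate 5 (0.0952), with values of 5.02 and 5.19.

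Each ipsilateral library lay above its partners of the same day of surgery, an order that follows from the lack of overlap between the groups. Ipsilateral replicate 2 had 6192 CPM for the sum and sham replicate 2 had 275 CPM, a ratio of 22.6. For replicate 5 the values were 3336 CPM in ipsilateral, 263 in contralateral and 175 in sham cortex, with ratios of 19.0 to sham and 12.7 to contralateral. Replicate 4 had 10134 CPM in ipsilateral and 298 in contralateral cortex, a ratio of 34.0, and replicate 6 had 8027 and 199 CPM, a ratio of 40.4. Contralateral replicate 1 had 112 CPM and sham replicate 1 had 145 CPM, a ratio of 0.768, while the ratio of contralateral to sham replicate 5 was 1.50. With the day of surgery as a replicate block, the edgeR log2 change of the sum was 4.56 ± 0.32 in ipsilateral against sham cortex, more than 1.5 times lower in fold than without the block, at adjusted p = 1.03e-05. The block gave 4.72 ± 0.25 against contralateral cortex (adjusted p = 3.02e-07 by edgeR), and -0.16 ± 0.33 in contralateral against sham cortex (adjusted p = 0.984 by edgeR), a turn of direction within the error.

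**Figure D2:**
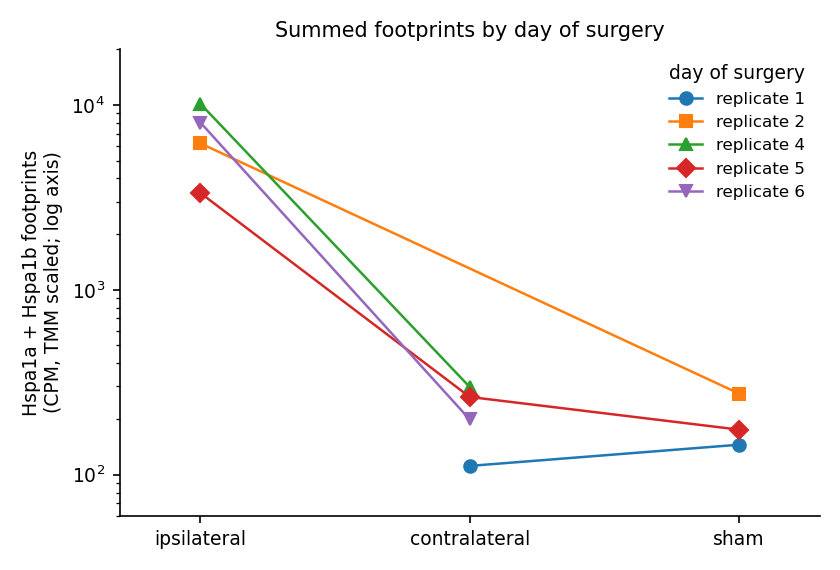
Summed Hspa1a and Hspa1b footprints per library in CPM on a log axis, with a line joining the libraries of one day of surgery. Each ipsilateral library lies above its same-day partner, by 12.7-fold at the least in replicate 5. Replicate 1 has no ipsilateral library, replicate 2 no contralateral library, and replicates 4 and 6 have no sham library.

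The constitutive relative gives an internal measure that needs no scaling. The ratio of the summed pair to the count of Hspa8, the housekeeping cytosolic HSP70, was 2.55, 3.74, 1.18 and 3.34 in ipsilateral replicates 2, 4, 5 and 6. It was 0.0468, 0.147, 0.106 and 0.0780 in contralateral replicates 1, 4, 5 and 6, and 0.0610, 0.159 and 0.0636 in sham replicates 1, 2 and 5. The ipsilateral ratios did not overlap the others. With the larger of the 2 copies' counts alone, the lower limit of distinct footprints if reads were entered under both, the ipsilateral ratios to Hspa8 were 1.28, 1.90, 0.596 and 1.68. The log2 ratio of the sum to Hspa8 was higher by 4.86 in ipsilateral against sham (exact permutation p = 0.0571, the smallest possible). It was higher by 4.83 against contralateral cortex (exact permutation p = 0.0286, the smallest possible), and the contralateral minus sham difference was 0.027 (exact permutation p = 1.0).

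Levels of different genes are compared here per coding length, with each copy's count as deposited. Hspa1a had 1806 ± 764 CPM per kb of coding sequence in ipsilateral, 58.0 ± 21.5 in contralateral and 50.9 ± 18.4 in sham cortex (SD, n = 4, 4 and 3). Hspa8 had 1338 ± 109, 1219 ± 121 and 1180 ± 270 CPM per kb in those groups. Hspa5, the HSP70 of the endoplasmic reticulum known as BiP, had 957 ± 125 CPM per kb in ipsilateral, 682 ± 45.1 in contralateral and 547 ± 65.0 in sham cortex. Hspa9, the mitochondrial member, ran from 121 to 189 CPM per kb in ipsilateral, 131 to 283 in contralateral and 157 to 212 in sham libraries, and Hspa2, best known from the testis, averaged 91.7 ± 44.2, 74.6 ± 3.44 and 81.8 ± 13.2 CPM per kb in the same order of groups. In contralateral and sham cortex the mean levels of Hspa1a and Hspa1b per length were thus the lowest of the 12 family members plotted, below Hspa13 at 71.2 and 70.9 CPM per kb. In ipsilateral cortex they were the highest, though the range of Hspa1a (858 to 2672 CPM per kb) included that of Hspa8 (1239.5 to 1460.3). That top place rests on the counting of shared reads. Had each read been entered under both copies and the copies shared the reads evenly, 1 copy would have 909 ± 380 CPM per kb in ipsilateral cortex (SD, n = 4), a mean below those of Hspa8 and Hspa5.

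**Figure D3:**
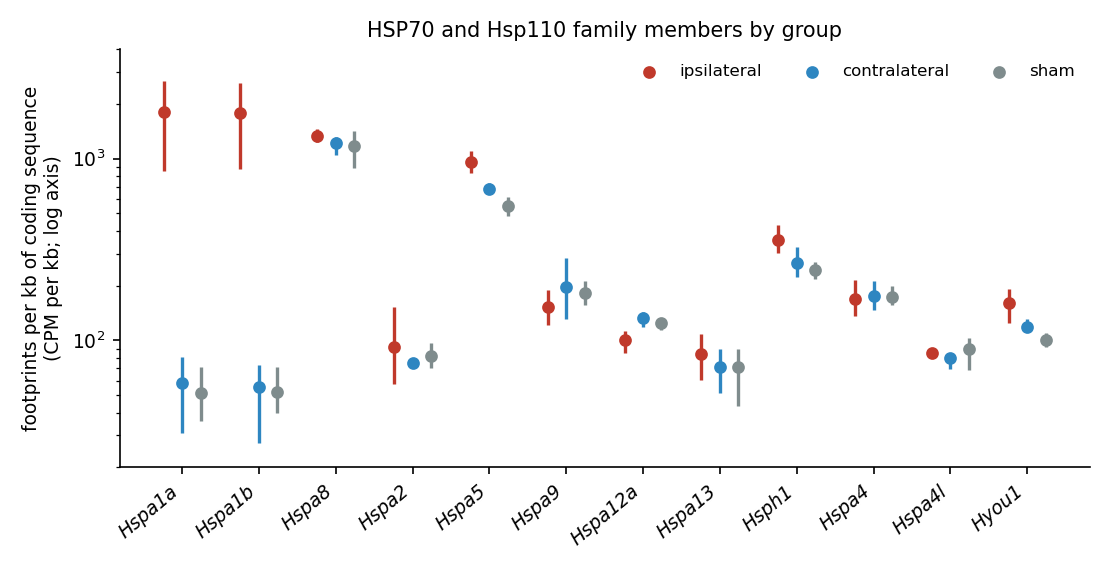
Footprints per kb of coding sequence (CPM per kb, log axis) of the HSP70 family, left, and of the Hsp110 family, right (Hsph1, Hspa4, Hspa4l and Hyou1), as group means with bars from the lowest to the highest library. Hspa1a and Hspa1b are apart by group, with ipsilateral means of 1806 and 1791 against 58.0 and 55.3 in contralateral and 50.9 and 52.2 in sham cortex, while bars of most other members overlap.

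Few of the partners that work with HSP70 passed the test. Of 57 listed genes of the chaperone system other than the pair, 41 were in the table and all 41 were tested. In ipsilateral against sham cortex 1 rose, 0 fell, and 28 had a log2 change above 0, with a median of 0.16. Over all genes tested 0.104% passed, 50.0% were above 0 and the median was -0.0008. In ipsilateral against contralateral cortex 2 rose, 0 fell and 28 were above 0, with a median of 0.25, where over all genes 0.365% passed, 51.1% were above 0 and the median was 0.01. In contralateral against sham cortex 0 passed and 18 were above 0, with a median of -0.05, where over all genes 0.0% passed and 49.8% were above 0. The groups did not overlap for 5 higher and 2 lower genes in ipsilateral against sham cortex, beside 3.91% and 3.26% of all genes. Against contralateral cortex they did not overlap for 3 higher and 2 lower genes, beside 2.35% and 2.06%. Hspb1, Bag3, Hsf1 and Hsf2 are among the 16 listed genes not analysed here.

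Among the other HSP70 members, Hspa5 had 1644, 1998, 1710.1 and 2168 CPM in ipsilateral replicates 2, 4, 5 and 6. It had 1272, 1385.5, 1444 and 1262 CPM in contralateral replicates 1, 4, 5 and 6, and 1078, 946 and 1201 CPM in sham replicates 1, 2 and 5. Every ipsilateral library lay above every other one. Hspa5 rose by 0.79 ± 0.16 on the log2 scale in ipsilateral against sham cortex (adjusted p = 0.0095 by edgeR). Its value of 0.48 ± 0.14 against contralateral cortex did not pass (adjusted p = 0.176 by edgeR). Its call against sham did not hold without ipsilateral replicate 6 (adjusted p = 0.0580), sham replicate 1 (0.134) or sham replicate 2 (0.0746), nor with the replicate block (adjusted p = 0.0913 by edgeR), without the 2 shallowest libraries (0.142) or with summed distinct transcripts (0.0866). The log2 changes in these 6 fits were 0.69 to 0.79. Hspa8 had log2 changes of 0.16 ± 0.15 against sham and 0.13 ± 0.14 against contralateral cortex (adjusted p = 0.864 and 0.899 by edgeR). Hspa9 stood at -0.34 ± 0.24 against sham and -0.40 ± 0.22 against contralateral cortex, and Hspa2 at 0.23 ± 0.28 and 0.31 ± 0.25. Neither passed.

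In the Hsp110 family, which resets HSP70 by exchanging its nucleotide, 0 of 4 genes passed. Hsph1 had 742, 1056, 867 and 804 CPM in ipsilateral replicates 2, 4, 5 and 6, against 649, 544, 622 and 799 CPM in contralateral replicates 1, 4, 5 and 6 and 589, 534 and 655 CPM in sham replicates 1, 2 and 5. Its ipsilateral libraries lay above all sham libraries and overlapped the contralateral ones. Its log2 change against sham was 0.50 ± 0.18 (adjusted p = 0.380 by edgeR). Hyou1, the family's member in the endoplasmic reticulum, had 0.62 ± 0.21 against sham (adjusted p = 0.345 by edgeR), also without overlap, and 0.42 ± 0.18 against contralateral cortex with overlap. Hspa4 and Hspa4l had -0.03 ± 0.20 and -0.14 ± 0.24 on the log2 scale against sham.

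Of the 10 J-domain partners, 1 passed. Dnajb1, the stress-inducible Hsp40, had 153, 171, 96.4 and 377 CPM in ipsilateral replicates 2, 4, 5 and 6. It had 78.7, 59.6, 118 and 83.0 CPM in contralateral replicates 1, 4, 5 and 6, and 103, 122 and 108 CPM in sham replicates 1, 2 and 5. Ipsilateral replicate 6 stood highest and replicate 5 overlapped both other groups. The log2 change of Dnajb1 was 1.24 ± 0.30 in ipsilateral against contralateral cortex (adjusted p = 0.0478 by edgeR) and 0.95 ± 0.33 against sham (adjusted p = 0.380). The call against contralateral cortex was lost in 19 of 22 alternatives, and without ipsilateral replicate 6 the log2 change was 0.62 at adjusted p = 0.935. Dnaja1, a second cytosolic partner, had 0.42 ± 0.24 against sham and 0.19 ± 0.21 against contralateral cortex, and did not pass.

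None of the 6 exchange factors and cofactors passed against either group. Stip1, which hands clients from HSP70 to HSP90, had log2 changes of 0.40 ± 0.19 against sham and 0.27 ± 0.17 against contralateral cortex, with no overlap of libraries in either comparison. Stub1, the ubiquitin ligase CHIP, had 0.27 ± 0.40 against sham and 0.59 ± 0.36 against contralateral cortex. St13, an HSP70 cofactor, had -0.24 ± 0.31 and 0.18 ± 0.29, and Bag6 had -0.20 ± 0.27 and 0.27 ± 0.25 in those comparisons. Of 11 HSP90 genes and cochaperones none passed. The inducible Hsp90aa1 had 0.38 ± 0.16 against sham and 0.25 ± 0.15 against contralateral cortex, and the constitutive Hsp90ab1 0.04 ± 0.13 and 0.11 ± 0.12.

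Cryab, the small heat shock protein αB-crystallin and the 1 of 4 listed small heat shock genes in the table, had 196, 114, 169 and 126 CPM in ipsilateral replicates 2, 4, 5 and 6. It had 45.9, 67.0, 65.8 and 46.7 CPM in contralateral replicates 1, 4, 5 and 6, and 57.3, 91.5 and 41.2 CPM in sham replicates 1, 2 and 5. No ipsilateral library overlapped the others, but these are counts of 4 to 27. Cryab rose by 1.53 ± 0.29 on the log2 scale in ipsilateral against contralateral cortex (adjusted p = 0.00486 by edgeR). It had 1.49 ± 0.34 against sham (adjusted p = 0.0580 by edgeR). The call against contralateral cortex did not hold without ipsilateral replicate 2 (adjusted p = 0.126), without contralateral replicate 6 (0.0918) or with the replicate block (0.124). Hsbp1, a small protein that binds heat shock factor 1 and restrains it, had lower CPM in every ipsilateral library (200 to 268) than in contralateral (276 to 400.0) or sham libraries (378 to 387). Its log2 changes of -0.62 ± 0.22 against sham and -0.42 ± 0.20 against contralateral cortex did not pass (adjusted p = 0.380 and 0.632 by edgeR).

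**Figure D4:**
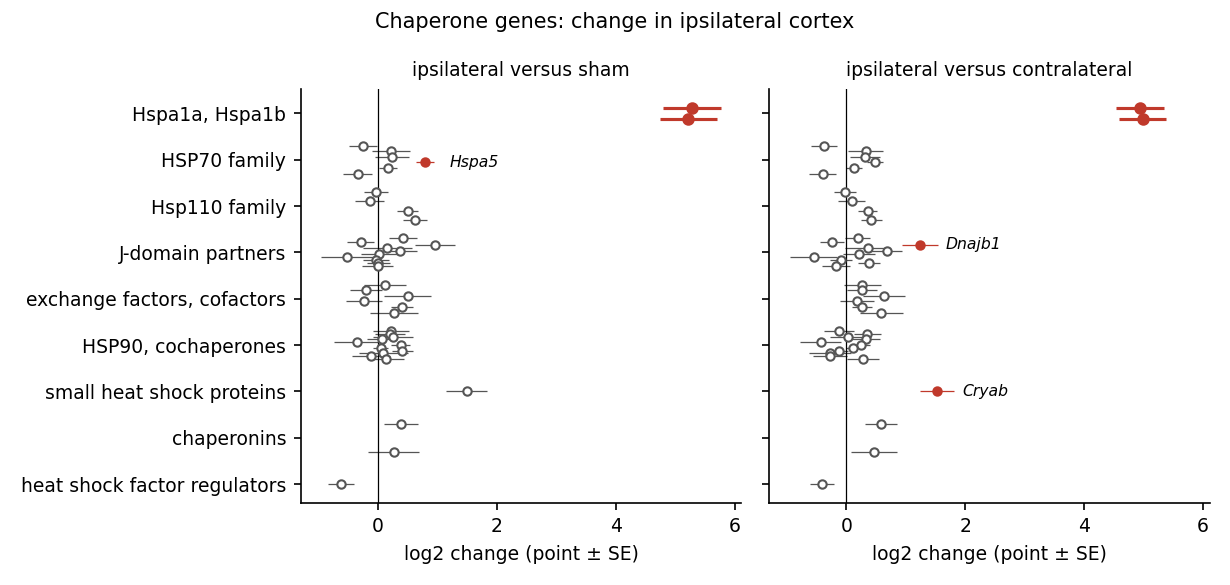
Log2 change ± SE of Hspa1a and Hspa1b (top) and of 41 other chaperone genes by list, for ipsilateral against sham (left) and against contralateral cortex (right), with filled red points at an edgeR adjusted p under 0.05. The pair lies near 5 in both panels, while the other genes lie between -0.62 and 1.53.

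The letters of the heat shock element were more frequent in windows of chaperone genes than in windows at large, as a description of these lists. Either inverted pair, GAANNTTC or TTCNNGAA, stood in a window of 12 of the 43 chaperone genes with a RefSeq entry (27.9%) and in 3932 of 27025 genes overall (14.6%). Of the 41 tested chaperone genes 31 had a window, which leaves out Hspa8, Hsp90aa1, Hsp90ab1 and Cryab among others. Of the 31, 9 held either pair, Hsph1, Dnaja1, Dnajb4, Dnajb6, Stub1, Cdc37, Fkbp4, Hspd1 and Hspe1, and 8 of these 9 were above 0 in both ipsilateral comparisons, with median log2 changes of 0.27 against sham and 0.36 against contralateral cortex. The 22 without either pair had 13 above 0 in each, with medians of 0.06 and 0.15. Over all genes tested 50.0% were above 0 against sham and 51.1% against contralateral cortex. None of the 9 passed the test, and Hspa5 and Dnajb1, which did, held neither pair. Hspd1 and Hspe1 lie on opposite strands with overlapping windows that hold the same matches, so they are not separate cases. Dnaja1, Dnajb4 and Hspd1 also had RefSeq windows without either pair. Any link between the letters and the changes was not tested.

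The 5 genes whose log2 CPM followed the summed pair most closely over the 11 libraries were Lgmn (legumain, a lysosomal protease), Pfn1 (profilin, an actin-binding protein), Mbp (myelin basic protein), Cryab and Pcsk1 (a prohormone convertase). Their Pearson r was 0.932, 0.905, 0.900, 0.880 and 0.875 in that order. The 11 libraries fall into a high ipsilateral and a low other cluster, so these values mostly restate a group difference. Within the 7 contralateral and sham libraries r was 0.378 for Lgmn, 0.565 for Pfn1, 0.826 for Mbp, 0.741 for Cryab and 0.751 for Pcsk1, over counts of the pair as low as 17. The 5 genes were picked over the 11 libraries, which include these 7, so these values are not independent of the choice. The spread of r over all genes within the 7 was not computed. Mbp had 301 to 599.5 CPM in ipsilateral, 151 to 261 in contralateral and 201 to 305 in sham libraries, and rose by 1.09 ± 0.22 on the log2 scale in ipsilateral against contralateral cortex (adjusted p = 0.0104 by edgeR). That call did not hold without ipsilateral replicate 2 (adjusted p = 0.0971), contralateral replicate 1 (0.0979) or contralateral replicate 6 (0.143), nor with the replicate block (0.0831). Against sham cortex Mbp had 0.91 ± 0.25 and did not pass (adjusted p = 0.121 by edgeR).

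Markers of other cell types differed in level between the groups for some lists and overlapped for others. Over all genes tested, 50.0% were above 0 and 0.104% passed in ipsilateral against sham, and 51.1% and 0.365% in ipsilateral against contralateral cortex. All 8 of 12 listed oligodendrocyte markers that were in the table were above 0 in both ipsilateral comparisons. Their summed level was 2601 to 5864 CPM in ipsilateral, 1981 to 2756 in contralateral and 1989.5 to 2699.9 in sham libraries, so the lowest ipsilateral library overlapped both other groups. Of these 8, 4 rose against contralateral cortex and 0 passed against sham. The 8 of 12 microglial markers in the table were above 0 in both, at a summed 1517 to 2017 CPM in ipsilateral, 1187 to 1408 in contralateral and 885 to 1170.0 in sham libraries, without overlap, and 0 passed. Haemoglobin genes, 4 of 5 red blood cell markers in the table, summed to 1013 to 1969.8 CPM in ipsilateral, 551 to 967 in contralateral and 869.5 to 1288.5 in sham libraries, and 2 of them rose against contralateral cortex. Only 2 of 12 endothelial and pericyte markers were in the table, at a summed 831 to 1188.5 CPM in ipsilateral, 911.5 to 1236.5 in contralateral and 829.8 to 1113.5 in sham libraries. The 12 astrocyte markers summed to 15468 to 16823 CPM in ipsilateral, 15089 to 20246 in contralateral and 14065 to 17447 in sham libraries, with 0 passing in any comparison. The striatal neuron markers, 4 of 9 in the table, summed to 228 to 720.3 CPM in ipsilateral, 238 to 741 in contralateral and 551.5 to 915 in sham libraries, with 2 of them at 0 in at least 1 ipsilateral library. Their median log2 change was -0.69 in ipsilateral and -0.95 in contralateral, each against sham, and 0.35 in ipsilateral against contralateral cortex, and 0 passed. No marker in the oligodendrocyte, microglial and haemoglobin lists was at 0 in any library. The part of these cells in the footprints of Hspa1a, Hspa1b, Cryab and the other chaperones was not tested.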

How the data were processed

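Ribosome-protected fragments were prepared per the labels' protocols by micrococcal nuclease digestion, monosome purification and precipitation of the large-subunit protein P0, gel selection at 30 to 50 nt, small RNA libraries with inserts of 15 to 35 bp, and single reads of 69 bp. The deposited values are whole-number counts per Ensembl transcript and library. The submitters' processing notes list Bowtie2, edgeR and mm10, with no role or version. For the counting tool and use of strand nothing is given in the sources used here. Of 9784 transcripts (summed count at least 101), 9736 matched GENCODE vM21. The other 48, with 0.306% of counts, stayed out of totals and tests.

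The transcript of highest summed count stood for its gene. Library totals are sums over these 4338 transcripts, so counts of a gene's other transcripts are not in them either. All 11 libraries were fitted by group with edgeR 4.0.16 in R 4.3.3 (filterByExpr with a minimum count of 10, TMM, robust quasi-likelihood), and p-values were adjusted by Benjamini-Hochberg over 3835 genes at a threshold of 0.05, with 503 genes removed by the filter. Dispersion was 0.0291 in common, or 0.171 as a coefficient of biological variation. The SE given with an edgeR log2 change is the size of that change divided by the square root of the test's F statistic. For the sum, the counts of the pair were added and the fit repeated. Permutation tests were exact and two-sided (scipy 1.17.1), and intervals were Clopper-Pearson at 95%. The script was tested on simulated data.

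Alternatives were DESeq2 1.42.0, limma-voom 3.58.1, other scalings, no filter, no robust moderation, 2 groups only, each library left out, the 2 shallowest left out (ipsilateral replicate 4 and sham replicate 2), summed distinct transcripts and a replicate block. The block is the day of surgery, from the series' design text. Deviations from group means correlated at r from -0.139 to 0.224 (median 0.131) in the 7 same-day pairs across groups and from -0.254 to 0.259 (median -0.0302) in the 33 others. Correlations for likeness used log2 CPM with a prior count of 2. Genes named were the pair, listed chaperones that passed, a fixed set of HSP70 partners, the 5 genes most correlated with the pair and its neighbours. Xylb, Fos, Hspa13 and Hsbp1 were chosen after their values were seen. The members, lists and tests were chosen with earlier results of these data known. Replicates are animals of separate days, and the number of animals per library is not stated.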

Additional observations from a re-analysis of the deposited data

Results flagged for a closer look

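In groups of 4 libraries, 4 of 100 combinations of a measured value and a group had 1 library set apart from the other 3 by Dixon's criterion, and chance flags about 1 in 20. Ahsa1, an HSP90 activator, had 100.4 CPM in ipsilateral replicate 6, against 142.7 to 145.5 in the other ipsilateral libraries. Cdc37, the kinase cochaperone of HSP90, had 85.6 CPM in ipsilateral replicate 4, the shallowest library, against 218 to 241 in the others. Dnajc7, a J-domain protein, had 163.9 CPM in contralateral replicate 4, against 282 to 301 in the others. St13 had 268.9 CPM in contralateral replicate 1, against 132 to 149 in the others. Neither Hspa1a, Hspa1b nor their sum was set apart in this way in ipsilateral or contralateral cortex.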

How the results depend on the processing

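The rise of Hspa1a and Hspa1b in ipsilateral cortex kept its direction in all 22 alternatives per comparison. Against contralateral cortex it passed in each of them, at log2 changes of 4.71 to 5.18 for Hspa1a, 4.77 to 5.22 for Hspa1b and 4.72 to 5.21 for the sum. Against sham it lost its call without sham replicate 1, with leave-one-out ranges of 5.04 to 5.52 for Hspa1a, 5.01 to 5.45 for Hspa1b and 5.00 to 5.46 for the sum. The sum also lost it without sham replicate 5, in the fit of 2 groups only (5.22, adjusted p = 0.104 by edgeR) and without the 2 shallowest libraries (5.19, adjusted p = 0.0763 by edgeR). The replicate block gave the lowest changes against sham, 4.55 for Hspa1a, 4.52 for Hspa1b and 4.56 for the sum. In contralateral against sham cortex the block turned the direction to -0.16 for Hspa1a, -0.25 for Hspa1b and -0.16 for the sum, none near the threshold, and the cause was not tested. It ended the calls of Hspa5, Cryab, Dnajb1 and Mbp named above. In permutation tests of ipsilateral against contralateral cortex, leaving out a library leaves p = 0.0571 by exact permutation, the smallest that 3 against 4 allows, at differences of 4.68 to 5.28 for log2 CPM and 4.54 to 5.19 for the log2 ratio to Hspa8. The contralateral minus sham difference ran from -0.10 to 0.39 for log2 CPM, with -0.09 without contralateral replicate 4, -0.03 without contralateral replicate 5 and -0.10 without sham replicate 1. For the log2 ratio it ran from -0.23 to 0.48, with -0.23 and -0.07 without contralateral replicates 4 and 5, and -0.21 and -0.18 without sham replicates 1 and 5.

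Counts of genes called moved more than the pair did. Against sham 4 genes became 23 without ipsilateral replicate 5 and 0 without sham replicate 1. Against contralateral cortex 14 became 26 without ipsilateral replicate 5, 3 without ipsilateral replicate 2, 9 without ipsilateral replicate 4, 5 and 4 without contralateral replicates 1 and 6, 8 with limma-voom or without robust moderation, and 7 without the 2 shallowest libraries or with summed distinct transcripts. In contralateral against sham cortex 0 became 2 with DESeq2, 1 without ipsilateral replicate 6 and 3 without sham replicate 5.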
